A study of Mus musculus with 4 samples.

Results

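A set of 975 accessible regions of the mouse genome was open in both cell populations of the study but covered a relatively wider stretch of DNA in DR+/+ cells than in DR-/- cells. They were taken from 11850 regions on chromosomes 1 to 19 that held a peak in each of the 4 libraries, out of 50231 union regions in all. DR+/+ cells are J1 mouse embryonic stem cells positive for MERVL and Zscan4c, and DR-/- cells are J1 cells negative for both, with 2 ATAC-seq libraries each. J1 is a single cell line of 129SV origin, here kept feeder-free with serum and leukemia inhibitory factor, and both populations share this background. The labels do not spell out what DR stands for, how the populations were separated, or whether the replicates were separate cultures, so the spread between replicates may be technical. Peak lists carry no transcript levels, so the MERVL and Zscan4c status of the libraries could not be checked here.

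In ATAC-seq the transposase Tn5 cuts DNA that is not wrapped in nucleosomes, and a peak marks a place where cuts pile up. The height of a peak reports how many reads pile up at its summit, whereas its width reports how far the detectable opening extends along the chromosome. MERVL is an endogenous retrovirus, and Zscan4c belongs to a gene family, that are both switched on when the mouse embryo first transcribes its own genome. Rare embryonic stem cells that turn them on pass through a state likened to the embryo at that stage, which is known for unusually open chromatin.

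The regions were chosen on width. In each library the summed width of the peaks in a region was ranked among the 11850 common autosomal regions and written as a percentile, which removes a shift common to all regions of a library. A region was kept when the lower of its DR+/+ percentiles exceeded the higher of its DR-/- percentiles by 10 or more. These regions are called DR+/+-wide here, and they make up 8.23% of those examined. The mirrored rule returned 992 regions, 8.37% of the same 11850, which are called DR-/--wide. Since all 4 libraries were used in the choice, the widths and every other contrast of the populations at these regions are given as descriptions, without a test.

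**Figure D1:**
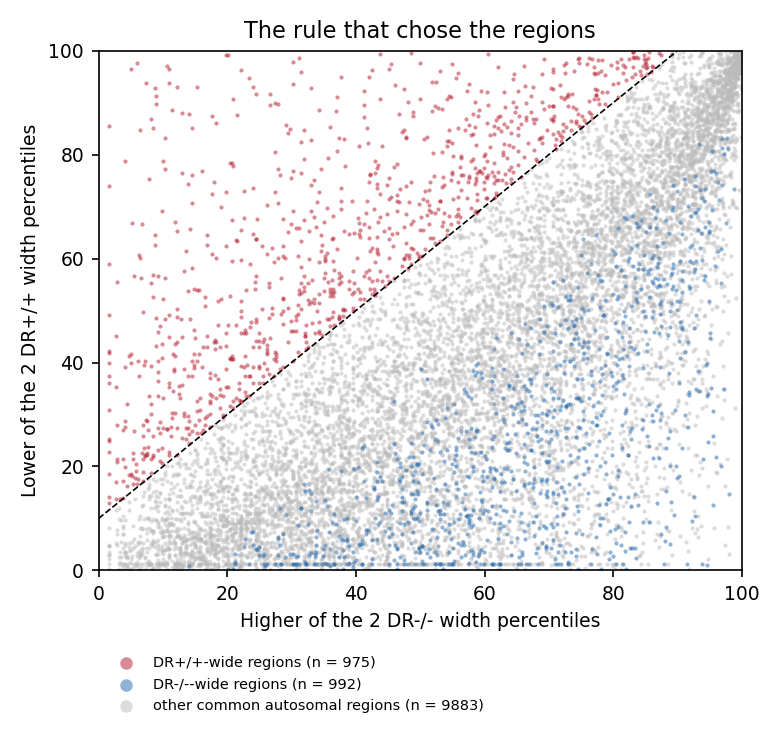
Each point is 1 of the 11850 common autosomal regions, placed by the higher of its DR-/- width percentiles (horizontal) and the lower of its DR+/+ width percentiles (vertical), and the dashed line marks a gap of 10. The 975 DR+/+-wide regions lie above the line, thinning out towards the top left corner. The 992 DR-/--wide regions lie below it, as do the remaining common regions.

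The DR+/+-wide regions were broad in DR+/+ cells and narrow in DR-/- cells. Their median summed width was 416 and 349 bp in DR+/+ replicates 1 and 2, against 162 and 178 bp in DR-/- replicates 1 and 2. Over all common autosomal regions the medians were 308 and 262 bp in DR+/+ replicates 1 and 2, against 227 and 246 bp in DR-/- replicates 1 and 2. The DR+/+-wide regions were thus wider than the common regions in DR+/+ libraries and also narrower than the common regions in DR-/- libraries. In bulk libraries, opening along a longer stretch in each cell and opening in more of the cells cannot be told apart. The median ratio of the mean DR+/+ width to the mean DR-/- width was 2.12 (interquartile range 1.82 to 2.62) in them and 1.17 (1.0 to 1.42) over all common regions. In all 975 both DR+/+ widths in base pairs exceeded both DR-/- widths, a condition that 38.3% of the common regions met. The reverse order, met by 5.69% of the common regions, was met by 0 of the 975. Both counts follow from the choice, since the rule asks for higher DR+/+ percentiles and common regions were wider in the DR+/+ lists. The lower DR+/+ width exceeded the higher DR-/- width by 127 bp in the median (interquartile range 88 to 203 bp).

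**Figure D2:**
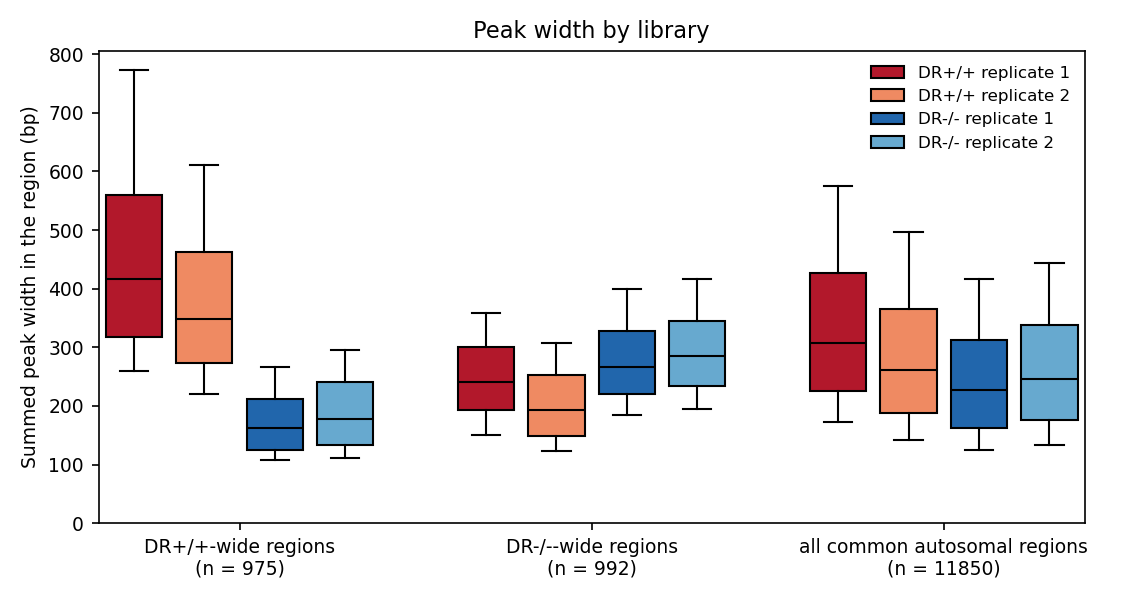
Boxes give the median and interquartile range of the summed peak width in base pairs, and whiskers the range from the 10th to the 90th percentile of regions, by library. In the 975 DR+/+-wide regions the DR+/+ medians of 416 and 349 bp stand above the DR-/- medians of 162 and 178 bp, and in the 992 DR-/--wide regions the order is turned round.

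The spread between replicates is given here as a description, since the same widths chose the regions. The median absolute difference of width percentiles between the DR+/+ replicates was 7.23 (interquartile range 2.5 to 15.2) and that between the DR-/- replicates 10.6 (4.14 to 23.8), against a median gap between the populations of 20.6 (14.2 to 31.8). Over all common regions the replicates differed by 12.1 percentiles in DR+/+ and 12.7 in DR-/-. The gap lay between 10 and 20 in 475 regions, between 20 and 40 in 351, between 40 and 60 in 101, and at 60 or more in 48. The 3 regions just inside the threshold had gaps of 10.0, and the 3 just outside had gaps of 9.9 to 9.96. One of those inside, chr2:97805423-97805701, was 275 and 279 bp wide in DR+/+ replicates 1 and 2, against 171 and 191 bp in DR-/- replicates 1 and 2. One of those outside, chr17:21610397-21610681, was 258 and 197 bp wide in DR+/+ replicates 1 and 2, against 146 and 151 bp in DR-/- replicates 1 and 2. At both sites each DR+/+ width exceeded each DR-/- width.

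The rule was looser with fewer libraries, because a region then had to clear 1 library in place of a pair. It returned 2012 of 12152 common regions without DR+/+ replicate 1 and 2179 of 13564 without DR+/+ replicate 2. Without DR-/- replicate 1 it returned 2452 of 14280, and without DR-/- replicate 2 it returned 2373 of 13266. With only the stronger 50% of each list there were fewer common regions, and 401 of 5903 met the rule.

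At the largest percentile gaps a broad DR+/+ region faced a short DR-/- peak, near the least length the list contained. A gap of that size requires high DR+/+ and low DR-/- percentiles, so this follows from the choice. The 12 regions with the largest gaps, on 7 chromosomes, measured 531 to 1062 bp in DR+/+ replicate 1 and 444 to 1143 bp in DR+/+ replicate 2, against 104 to 131 bp in DR-/- replicate 1 and 103 to 162 bp in DR-/- replicate 2. The shortest peak of any kind was 108 and 115 bp in the DR+/+ lists, against 104 and 103 bp in the DR-/- lists. In the DR-/- libraries all 12 summits lay below the medians of the common regions, 18 and 20 reads in replicates 1 and 2. Their summits held 16 to 25 and 13 to 28 reads in DR+/+ replicates 1 and 2, against 9 to 16 reads in each DR-/- library.

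All positions are on the mm9 build of the mouse genome, and the genes, repeats and sequences at them were not analysed here. The largest gap, 91.6 percentiles, was at chr5:68828405-68829345. It was 886 and 726 bp wide in DR+/+ replicates 1 and 2, against 104 and 119 bp in DR-/- replicates 1 and 2. Each DR+/+ list held 2 peaks there and each DR-/- list 1, with 18 and 16 reads at the DR+/+ summits against 11 and 9 reads at the DR-/- summits. Both DR+/+ lists reached 313 bp or more past both DR-/- peaks on the left and 35 bp or more on the right.

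The region at chr9:36466283-36467227 followed, with a gap of 91.3. It was 751 and 838 bp wide in DR+/+ replicates 1 and 2, against 111 and 109 bp in DR-/- replicates 1 and 2, and its summits held 25 and 28 reads in DR+/+, against 14 and 12 in DR-/-. Both flanks were longer in DR+/+ cells there, by 387 bp and 236 bp. At chr14:114198495-114199025 all 4 lists held a single peak, of 531 and 444 bp in DR+/+ replicates 1 and 2, against 104 and 103 bp in DR-/- replicates 1 and 2. In this case both DR-/- peaks had exactly the shortest length of their list. Height did not differ in the same way at every such site, and chr5:83817664-83818667 had 16 and 13 reads at its DR+/+ summits, against 16 and 12 at its DR-/- summits. Its width was nonetheless 717 and 566 bp in DR+/+ replicates 1 and 2, against 116 and 124 bp in DR-/- replicates 1 and 2, so there the populations overlapped in height but not in width.

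By absolute length the largest difference was at chr10:46305990-46307573. It measured 1399 and 1273 bp in DR+/+ replicates 1 and 2, against 357 and 207 bp in DR-/- replicates 1 and 2, and the lower DR+/+ width exceeded the higher DR-/- width by 916 bp. The region chr3:66473947-66475094 stood high on both measures, with a gap of 79.3 percentiles and a difference of 900 bp. Its widths were 1062 and 1143 bp in DR+/+ replicates 1 and 2, against 104 and 162 bp in DR-/- replicates 1 and 2. At chr16:27423464-27425069 the DR+/+ widths of 1497 and 1045 bp were split over 2 and 4 peaks, against DR-/- widths of 223 and 211 bp over 2 peaks each. Its summits held 34 and 26 reads in DR+/+ replicates 1 and 2, against 12 and 13 reads in DR-/- replicates 1 and 2.

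The strongest of the DR+/+-wide regions were picked for high ranks in all 4 lists, which requires strong summits in both populations, so their small contrast in height beside that in width follows from the choice. Strength was ranked by q-value within each list, and the member with the highest rank in its weakest list, chr2:22444144-22444589, held 123 and 116 reads at its DR+/+ summits, against 110 and 114 at its DR-/- summits. Its width was 432 and 441 bp in DR+/+ replicates 1 and 2, against 237 and 244 bp in DR-/- replicates 1 and 2. Its fold, a ratio to the local background, was 4.43 and 3.99 in the DR+/+ replicates, against 4.46 and 4.74 in the DR-/- replicates. Medians over the DR+/+-wide regions were 5.81 and 5.26, against 4.91 and 4.95, so its many reads stood on a high local background. At the next, chr9:77568685-77569006, the DR+/+ summits held 34 and 31 reads, against 29 and 30 at the DR-/- summits. That region was 316 and 321 bp wide in DR+/+ replicates 1 and 2, against 156 and 155 bp in DR-/- replicates 1 and 2. At both sites the replicates of 1 population differed in width by at most 9 bp. At chr12:100883295-100883895 the summits held 36 and 31 reads in DR+/+ replicates 1 and 2, against 36 and 35 reads in DR-/- replicates 1 and 2, so the heights of the populations overlapped. The widths there were 593 and 460 bp in DR+/+ replicates 1 and 2, against 312 and 347 bp in DR-/- replicates 1 and 2.

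In most of the DR+/+-wide regions the added width was that of a single longer peak. In 651 of the 975 regions (66.8%) every list held exactly 1 peak, compared with 84.2% of all common regions. More than 1 peak lay in 14.3% and 19.8% of the regions in DR+/+ replicates 1 and 2, against 6.46% and 10.5% in DR-/- replicates 1 and 2. Over all common regions the shares were 5.29% and 6.24% in DR+/+ replicates 1 and 2, against 6.78% and 7.59% in DR-/- replicates 1 and 2. The share with 1 peak in every list was 72.0% where the gap was 10 to 20 and 33.3% where it was 60 or more, so regions split over several peaks were commoner at the extreme. The rule sums the widths of all peaks in a region, so an excess of further DR+/+ peaks can follow from the choice. Of the DR-/--wide regions, 92.4% held 1 peak in every list. More than 1 peak lay in 3.33% and 3.53% of them in DR-/- replicates 1 and 2. Both DR+/+ peaks reached past both DR-/- peaks on both sides in 401 regions (41.1%), on 1 side in 514 (52.7%) and on neither in 60 (6.15%). The corresponding shares of all common regions were 9.54%, 41.4% and 49.1%. Peak edges set the widths that chose the regions, so a longer reach and more flank coverage in DR+/+ follow from the rule. The farther side of the DR+/+ extension measured 78 bp in the median and the nearer side -6 bp, so a typical member was longer on 1 flank. In the plot of coverage around the summit, 49.0% and 36.9% of the DR+/+-wide regions were covered 200 bp to the left in DR+/+ replicates 1 and 2, against 8.0% and 10.3% in DR-/- replicates 1 and 2. To the right at the same distance the shares were 48.2% and 37.4% in the DR+/+ replicates, against 9.85% and 8.82% in the DR-/- replicates.

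**Figure D3:**
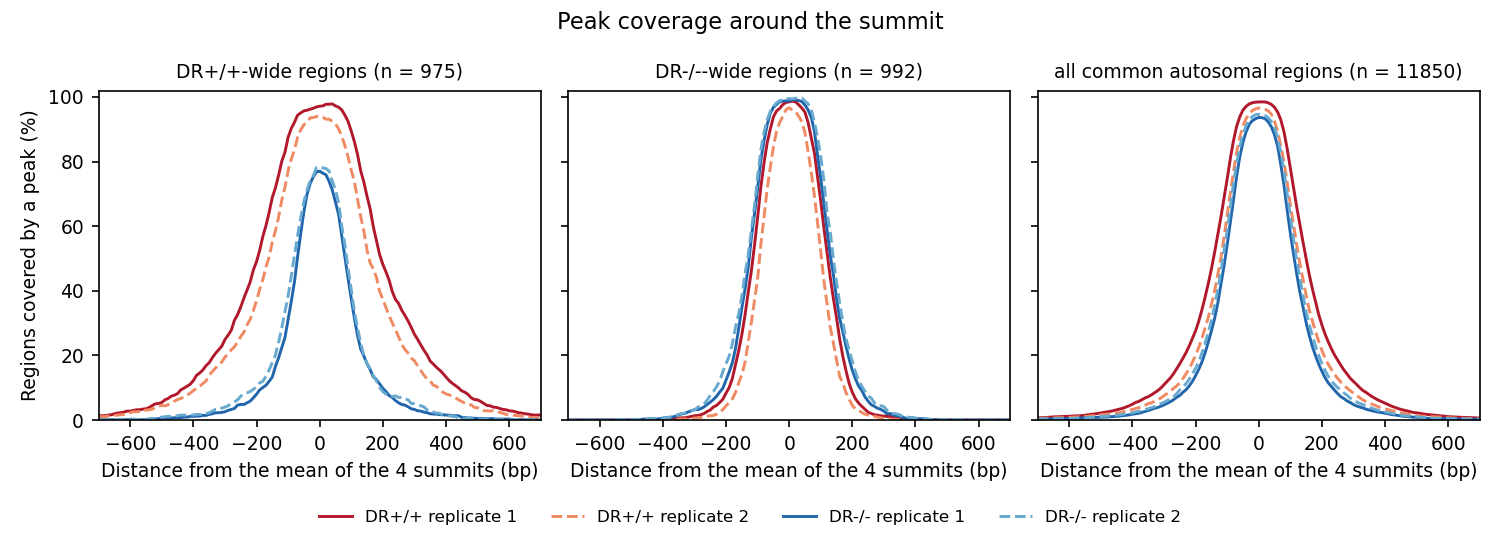
Lines give the percentage of regions covered by a peak of each library at each distance in base pairs from the mean position of the 4 summits, for the 975 DR+/+-wide regions, the 992 DR-/--wide regions and all 11850 common autosomal regions. In the left panel both DR+/+ curves are broader than both DR-/- curves on either side, and they stand higher at the centre, at 97.1% and 94.1% against 77.0% and 78.3%. In the middle panel the DR-/- curves are the broader, by less. Both sets were chosen on the widths of these peaks.

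Many of the DR-/- peaks at these sites were close to the shortest length in their list. The rule asks for low DR-/- width percentiles, so an excess of short DR-/- peaks follows from the choice. Widths at most 25% longer than the shortest peak of the list were found at 276 regions (28.3%) in DR-/- replicate 1 and 221 (22.7%) in DR-/- replicate 2. Among all common regions these shares were 11.9% and 8.62%. In the DR+/+ lists 0 of the 975 were so short, which the rule fixes, compared with 3.32% and 10.3% of all common regions in DR+/+ replicates 1 and 2. Of the DR-/--wide regions, 6.05% and 21.8% were so short in DR+/+ replicates 1 and 2.

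Summits within the DR+/+-wide regions lay farther apart between libraries than in common regions at large, also between replicates. The summits of the DR+/+ replicates lay 54 bp apart in the median and those of the DR-/- replicates 49 bp, compared with 36 and 37 bp over all common regions. They were more than 200 bp apart at 16.1% of the DR+/+-wide regions between the DR+/+ replicates and at 15.3% between the DR-/- replicates. At all common regions the shares were 5.62% and 6.09%. Between the populations the median distance was 48 to 54 bp over the 4 pairs of libraries, a range that holds both values within the populations. In DR-/--wide regions summits beyond 200 bp were rarer than in all common regions, at 1.21% between the DR+/+ replicates and 2.12% between the DR-/- replicates. The merged regions differed in length too, with medians of 465 bp for DR+/+-wide, 323 bp for DR-/--wide and 366 bp for all common regions. The part of this length in the summit distances was not tested.

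DR+/+-wide regions were of modest height in both populations. The number of reads piled up at the summit was recovered from the fold enrichment and p-value of each peak. Its median was 21 and 18 reads in DR+/+ replicates 1 and 2, against 14 and 16 in DR-/- replicates 1 and 2. Ranked among all common regions, these were medians of the 38.6th and 41.2nd percentile in the DR+/+ replicates, against the 22.6th and 26.4th in the DR-/- replicates. Both DR+/+ pileups exceeded both DR-/- pileups in 555 of the 975 (56.9%), compared with 34.2% of all common regions, and 16 had the reverse order (1.64%, compared with 4.89%). A gap in pileup percentile of 10 or more in favour of DR+/+ was present in 276 (28.3%), compared with 9.4% of all common regions, and one in favour of DR-/- in 34 (3.49%, compared with 9.26%). The larger part of the DR+/+-wide regions therefore had no such gap in height. Height and width come from the same reads of the same libraries, so this is not an independent measure of the contrast.

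At like height the DR+/+-wide regions were broader in DR+/+ libraries and narrower in DR-/- libraries than common regions. These widths are the ones that chose the regions, so an order of this kind follows from the rule and is only described. Among peaks with 17 to 20 reads at the summit, their median width was 393 and 356 bp in DR+/+ replicates 1 and 2, against 165 and 189 bp in DR-/- replicates 1 and 2. All common regions of that height measured 271 and 253 bp in DR+/+ replicates 1 and 2, against 229 and 228 bp in DR-/- replicates 1 and 2. The same order was found at 13 to 16 reads and at 21 to 25 reads. Expressed per summit read, the DR+/+-wide regions spanned 19.1 and 19 bp in DR+/+ replicates 1 and 2, against 10.8 bp in each DR-/- replicate. Over all common regions these values were 12.95 and 13 bp in DR+/+ replicates 1 and 2, against 12.6 and 12.1 bp in DR-/- replicates 1 and 2. DR-/--wide regions had the same median summit pileup as DR+/+-wide regions in the DR+/+ libraries, 21 and 18 reads, but a median width of 240 and 194 bp there.

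**Figure D4:**
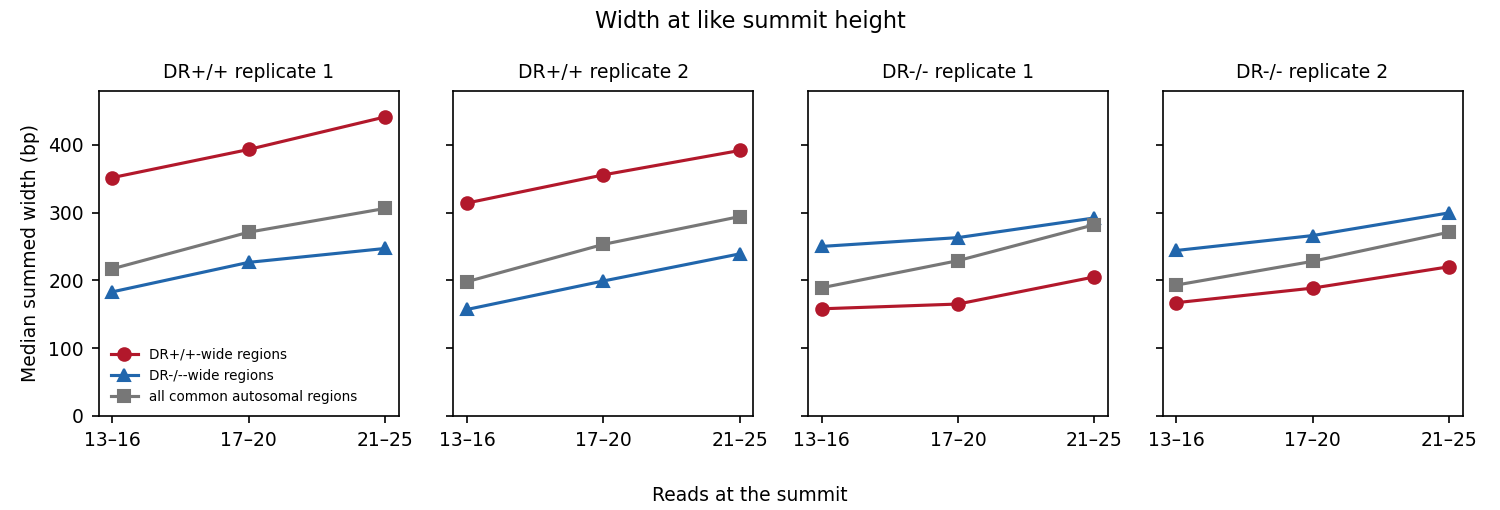
Each panel is 1 library, and points give the median summed width in base pairs of regions whose summit held 13 to 16, 17 to 20 or 21 to 25 reads. The DR+/+-wide regions lie above all common regions in both DR+/+ libraries, at 393 and 356 bp against 271 and 253 bp with 17 to 20 reads, and below them in both DR-/- libraries. The DR-/--wide regions show the opposite order. The widths shown are those that chose both sets.

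The background level and the length of the lists moved with the populations, and their part in these widths was not tested. The lowest background pileup of a list was 1.66 and 1.62 reads in DR+/+ replicates 1 and 2, against 1.308 and 1.47 in DR-/- replicates 1 and 2. Peaks numbered 40933 in DR+/+ replicate 1 and 26866 in its replicate 2, against 21630 in DR-/- replicate 1 and 24432 in its replicate 2. The local background at the DR+/+-wide regions was 2.78 and 2.6 reads in the median in DR+/+ replicates 1 and 2, against 2.0 and 2.26 in DR-/- replicates 1 and 2. At all common regions it was 2.76 and 2.6 in the DR+/+ replicates, against 2.25 and 2.54 in the DR-/- replicates, so the background at DR+/+-wide regions was below that of common regions in the DR-/- libraries and about equal to it in the DR+/+ libraries. With every list limited to its 21630 strongest peaks, the rule returned 755 regions wider in DR+/+ and 774 wider in DR-/-, of 9886 common regions.

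A difference in width seen in 1 pair of libraries was found again in the other pair more often than in common regions at large. Here regions were chosen on the replicate 1 libraries alone and read in the replicate 2 libraries, and the other way round, so the values read were not used in the choice. Of 3349 regions (28.3% of all common ones) whose DR+/+ percentile exceeded the DR-/- percentile by 10 or more in replicate 1, 40.6% (95% Wilson interval 39.0 to 42.3%) did so in replicate 2. Over all common regions the share in replicate 2 was 28.6%. Of 3390 regions chosen in replicate 2, 40.1% (38.5 to 41.8%) passed in replicate 1, compared with 28.3% of all. A difference of 10 or more in the opposite direction was nevertheless found in 27.9% of the regions chosen in replicate 1, compared with 30.6% of all. Most of the regions chosen in 1 pair thus did not pass in the other. For regions wider in DR-/- by 10 or more, the share found again was 36.5% in replicate 2, compared with 30.6% of all, and 42.1% in replicate 1, compared with 35.4% of all. The width percentiles themselves agreed only moderately between replicates, with a Spearman coefficient over the 11850 regions of 0.706 for DR+/+ and 0.643 for DR-/-. Between the populations the coefficient was 0.582 to 0.622, and these values share the regions and describe these libraries only.

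Summit heights of regions chosen on width in 1 replicate shifted the same way in the other replicate more often than in common regions at large. A shift of 10 or more percentiles was still found in a minority of the chosen regions. Of the 3349 regions chosen in replicate 1, 39.3% (37.7 to 41.0%) had a summit pileup percentile higher by 10 or more in DR+/+ in replicate 2, compared with 29.8% of all common regions. Of the 3390 regions chosen in replicate 2, 37.6% (36.0 to 39.3%) did so in replicate 1, compared with 30.5%. Regions chosen as wider in DR-/- had summits higher in DR-/- by 10 or more at 35.9% in replicate 2, compared with 30.9% of all. In replicate 1 the share was 39.9%, compared with 31.5%. The intervals cover counting error over regions only.

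DR+/+-wide regions were commonest where other common regions were sparse, a property that the rule did not use. Around each region the other common autosomal regions within 500 kb were counted. With at most 4 such neighbours, 435 of 3852 regions (11.3%, 95% Wilson interval 10.3 to 12.3%) were DR+/+-wide. With 5 to 6 and 7 to 10 neighbours the shares were 7.72% and 7.28%, and with more than 10 neighbours 131 of 2515 regions (5.21%, 4.41 to 6.15%) were DR+/+-wide. DR-/--wide regions showed no such gradient, at 8.41% (7.58 to 9.33%) with at most 4 and 8.83% (7.78 to 10.0%) with more than 10 neighbours. Among regions of middling width, with a mean percentile over the 4 libraries of 40 to 60, the DR+/+-wide share was 16.6% with at most 4 and 6.76% with more than 10 neighbours. This comparison was chosen after the values were seen, and no test was made over regions. The ratio of the share in sparse to that in dense neighbourhoods was 2.17, and it was 1.314 without DR+/+ replicate 1, 1.54 without DR+/+ replicate 2, 1.56 without DR-/- replicate 1 and 1.59 without DR-/- replicate 2. With the stronger 50% of each list it was 1.33.

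Over the whole set of common regions, the difference in width between sparse and dense neighbourhoods was larger in either DR+/+ library than in either DR-/- library. The mean width percentile of regions with at most 4 neighbours minus that of regions with more than 10 was 5.47 and 4.1 in DR+/+ replicates 1 and 2, against 0.851 and 0.595 in DR-/- replicates 1 and 2. The means were 4.78 ± 0.97 percentiles in DR+/+ and 0.723 ± 0.181 in DR-/- (SD, n = 2 each). Summits in sparse neighbourhoods were lower than in dense ones in every library, and less so in DR+/+. Their mean pileup percentile differed by -7.78 and -7.86 in DR+/+ replicates 1 and 2, against -13.9 and -14.2 in DR-/- replicates 1 and 2. All these values include the 975 regions, and the widths are those that chose them, so the values are given with no test.

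**Figure D5:**
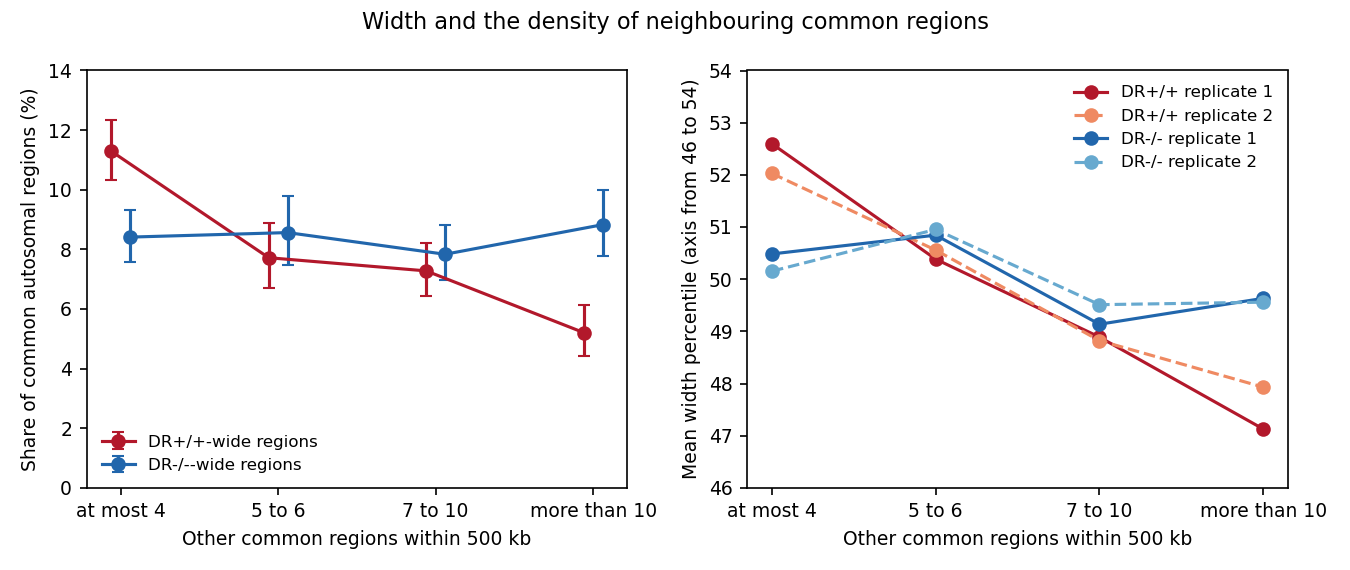
The left panel gives the percentage of common autosomal regions that were DR+/+-wide or DR-/--wide, with 95% Wilson intervals, by the number of other common regions within 500 kb, and the right panel the mean width percentile of all common regions in each library (its axis runs from 46 to 54). The DR+/+-wide share is 11.3% in the sparsest class and 5.21% in the densest, while the DR-/--wide share stays between 7.84% and 8.83%.

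The nearest other common region lay 61.1 kb away in the median for DR+/+-wide regions, 39.98 kb for DR-/--wide regions and 45.0 kb for all common regions. The distance to sites called in DR+/+ cells alone was compared in the same way. A region with a peak in both DR+/+ lists and in neither DR-/- list lay within 10 kb of 54 of the 975 (5.54%, 95% Wilson interval 4.27 to 7.16%), compared with 5.3% of all common regions. Within 500 bp there were 22 (2.26%, 1.49 to 3.39%), compared with 1.46%. With lists of equal length, which has fewer sites called in DR+/+ cells alone, the share within 10 kb was 3.05%, compared with 1.79% of all common regions.

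By chromosome the share of common regions that were DR+/+-wide ran from 6.11% on chromosome 11 (44 of 720, 95% Wilson interval 4.58 to 8.1%) to 10.8% on chromosome 14 (55 of 511, 8.36 to 13.7%). Chromosome 4 followed closely with 81 of 755 regions (10.7%, 8.72 to 13.1%), and chromosome 8 with 63 of 624 (10.1%). Low shares were found on chromosome 2 (59 of 952, 6.2%), chromosome 9 (41 of 654, 6.27%) and chromosome 19 (19 of 297, 6.4%). DR-/--wide regions were ordered differently, from 6.23% on chromosome 7 to 11.0% on chromosome 16. The intervals of 15 of the 19 chromosomes included the overall share of 8.23%, those of chromosomes 2 and 11 lay below it, and those of chromosomes 4 and 14 above it. Neighbours in this order had overlapping intervals.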

How the data were processed

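ATAC-seq peaks of 4 libraries, 2 of DR+/+ and 2 of DR-/- J1 embryonic stem cells, were analysed, grouped by their titles. The submitters' processing notes name the mm9 build, SAMtools 0.1.19, FastQC 0.10.1 and Bowtie2 2.3.0, without their settings. For the peak caller, the shift of reads to the insertion site and duplicates, the sources used here give nothing. The authors deposited 1 list of peaks per library that gives for each peak a score, its fold (a ratio to the local background), and its p-value and q-value on the −log10 scale. The lists include no read total. Summit pileups were computed from fold and p-value, whole for 100% of peaks within 0.001 log10 units, and they limit the precision of single regions.

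Peaks overlapping by 1 bp or more were merged with pandas 2.3.3, NumPy 2.4.6 and SciPy 1.17.1 under Python 3.11.15, and Wilson intervals came from statsmodels 0.14.6. The height of a region is that of its peak with the smallest q-value. The code was tested on simulated data. The regions, groupings and comparisons were chosen with earlier results of these data known. Regions are named by the size of the percentile gap (12 regions), by strength in all lists (6), by the difference in bp (6), and as the nearest to the threshold on either side (3 each). Of these, the text prints those it describes, picked after their values were seen. Same-numbered libraries did not deviate together (r = 0.00271 over 11850 regions), so the rule did not pair libraries by number. The reading across replicates and the replicate block did pair them by number. Alternatives were other width measures, thresholds, list lengths and merging, single-peak regions, the X chromosome, each library left out, and pairing by number. No sequence or gene annotation of mm9 was used.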

Additional observations from a re-analysis of the deposited data

How the results depend on the processing

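The number of DR+/+-wide regions stayed within 1.5 times of 975 under 9 of 15 alternatives. It was 500 of 11850 common regions with a percentile gap of 20, and 401 of 5903 with the stronger 50% of each list. With 1 library left out it was 2012 to 2452, of 12152 to 14280 common regions. DR-/--wide regions numbered 2245 to 2688 with 1 library left out and 1529 with the replicate block, which takes gaps between libraries of the same number. With the replicate block 1361 regions were DR+/+-wide. The median DR+/+ minus DR-/- difference in q-value percentile at the DR+/+-wide regions was 20.5, compared with 5.38 over all common regions. In replicates 1 and 2 it was 26.2 and 12.8, compared with 9.68 and 0.418 over all common regions. The median at the DR+/+-wide regions kept its sign under all 8 alternatives run and was 11.6 to 21.5 with 1 library left out. Its counterpart over all common regions was not computed under those alternatives.

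The share with a DR+/+-specific region near by (5.54% within 10 kb, compared with 5.3% of all common regions) was 2.87% within 2 kb, compared with 2.17%, and 20.9% within 50 kb, compared with 19.7%. It was 3.05% with lists of equal length, compared with 1.79%, and 8.12 to 21.6% with 1 library left out, compared with 7.72 to 20.9%, where fewer lists define what is specific. Shares found again in the other replicate, 40.6% in replicate 2 and 40.1% in replicate 1, were 42.7% and 42.2% with the widest single peak, 46.8% and 44.0% with a gap of 5, and 31.2% and 32.8% with a gap of 20. The shares of all common regions under those settings were 30.1% and 29.8%, 36.8% and 34.6%, and 17.4% and 18.3%. The ratio of DR+/+-wide shares in sparse and dense neighbourhoods (2.17) was above 1 under all 13 alternatives, which were added after the data were seen. It was 2.76 with a gap of 20, 1.33 with the stronger 50% of each list, 1.68 with the replicate block, and 1.314 to 1.59 with 1 library left out. With a gap of 5, which returned 1357 regions, the ratio was 1.89. The cause of these shifts was not tested. Fewer libraries loosen the rule by construction, which bears on the number of regions, and its part in the ratio was not tested. Summits of 14 to 21 reads in the median limit how exactly the edges of single peaks are known.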

Other observations

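Neighbouring DR+/+-wide regions on a chromosome lay 1596 kb apart in the median, and 54 of 956 such distances were at most 100 kb. Of the 1 Mb windows that held a common autosomal region, 1490 contained no DR+/+-wide region, 567 contained 1, 153 contained 2, 27 contained 3, 4 contained 4 and 1 contained 5. The window with 5 was chr4:88000001-89000000, where 5 of 13 common regions were DR+/+-wide and 2 were DR-/--wide. The other windows were chr12:66000001-67000000 with 4 of 9, chr17:57000001-58000000 with 4 of 13, chr9:20000001-21000000 with 4 of 15 and chr6:47000001-48000000 with 4 of 25, and none of the common regions in these 4 windows was DR-/--wide. Windows were picked for their counts, so these counts carry no test.

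In the window on chromosome 4 the members differed in size. The region chr4:88022197-88022596 was 367 and 352 bp wide in DR+/+ replicates 1 and 2, against 121 and 175 bp in DR-/- replicates 1 and 2. A larger one, chr4:88956475-88957074, was 600 and 560 bp wide in DR+/+ replicates 1 and 2, against 326 and 349 bp in DR-/- replicates 1 and 2. On chromosome 12 the region chr12:66367076-66367939 was 824 and 854 bp wide in DR+/+ replicates 1 and 2, against 241 and 103 bp in DR-/- replicates 1 and 2. Its summits held 27 and 29 reads in DR+/+ replicates 1 and 2, against 13 reads in each DR-/- library.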
